A study of Homo sapiens with 3 samples.

Results

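The 10 genes described here encode the proteins with which cells detect foreign or misplaced nucleic acid in the cytosol and in endosomes. They were chosen by name: a row of the count table belonged if its gene symbol was DDX58, IFIH1, DHX58, EIF2AK2, MB21D1, TMEM173, MAVS, TLR3, TICAM1 or ADAR. All 10 were found among the 26485 genes of the table. The table uses older symbols for DDX58, now RIGI, for MB21D1, now CGAS, and for TMEM173, now STING1.

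Double-stranded RNA in the cytosol is bound by the helicases RIG-I and MDA5, which signal through the mitochondrial adaptor MAVS, and by the kinase PKR, which halts translation. Cytosolic DNA is bound by cGAS, whose cyclic dinucleotide product activates STING, and double-stranded RNA in endosomes is bound by TLR3, which signals through TRIF. These routes lead to transcription of interferons, several sensor genes are themselves transcribed in response to interferon, and the editing enzyme ADAR1 marks the cell's own double-stranded RNA so that sensors ignore it.

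Total RNA was sequenced from HEC1B, an established human endometrial cancer cell line, at 48 h. The siPRMT6-1 library and the siPRMT6-2 library are the PRMT6 knockdown group, each made with a different siRNA against PRMT6, an enzyme that methylates arginines of histones and other proteins. The siNC library is the control and carries the genotype label WT. No siRNA was used in more than 1 library. The labels do not name separate cultures, so a p-value here reflects only how far these libraries spread. That spread includes the difference between the siRNAs and may also be technical.

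The libraries held 381628 counts assigned to genes with siPRMT6-1, 362080 with siPRMT6-2 and 410916 with siNC. At these low totals, 5512 to 5754 genes reached 10 counts. Whether low counts come from sequencing depth or from the strand of the counting, described below, was not tested. PRMT6 had 4 counts with siPRMT6-1, 7 with siPRMT6-2 and 25 with siNC, ratios to siNC of 0.167 for siPRMT6-1 and 0.327 for siPRMT6-2 (95% intervals, exact binomial, of 0.0421 to 0.482 and 0.120 to 0.778). Of the epithelial markers, KRT8 had 681, 770 and 1329 counts and PAX8 had 117, 227 and 158 with siPRMT6-1, siPRMT6-2 and siNC. EPCAM had 4 or 5, and KRT19 and CDH1 had 0 throughout. KRT8 shares 135 exon bases with another gene on the opposite strand. PAX8 shares 66 with PAX8-AS1, which had 856, 1056 and 1000 counts. What the KRT8 and PAX8 counts stand for is therefore uncertain. The leukocyte markers summed to 1, 2 and 0 counts in the same order, with PTPRC, CD3E and CD14 at 0. The 5 fibroblast markers summed to 360, 372 and 531, of which COL1A1 held 354, 370 and 515 while COL1A2, DCN and LUM were at 0. The 4 endothelial markers summed to 18, 6 and 19, with CDH5 and KDR at 0. The part of these markers in the values below was not tested.

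The strand of the counts is uncertain. The libraries were stranded, per the labels' protocols. In 142 pairs, a gene with an antisense name overlaps its sense gene by at least 100 exon bases, with at least 100 counts in the pair. The antisense member held the larger count in 120 pairs with siPRMT6-1, 120 with siPRMT6-2 and 118 with siNC. None of the 10 sensing genes shares exon bases with another gene of the table on either strand. Whether each count stands for transcripts of the named strand was not tested. In GENCODE release 29, EIF2AK2 shares 401 exon bases with the processed pseudogene AC007899.1 on the opposite strand, which is not in the count table.

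The promoter letters of 3 of the genes are shown because they hold the core of the element bound by interferon-activated transcription factors, GAAANNGAA, at or before the gene start. RefSeq windows of 250 bases before to 50 after a gene start (GRCh38.p14) were matched by symbol to 7 of the 10 genes, 9 windows in all. On both strands, GAAANNGAA was found in the windows of IFIH1, EIF2AK2 and TLR3, and in 8.11% of all 35116 windows. Capitals mark the matches, read 5′ to 3′ on the strand of the gene. The first line is chr2:162318685-162318878 (minus strand), the next chr2:37156971-37157000 (minus strand) and the last chr4:186069136-186069165 (plus strand).
IFIH1: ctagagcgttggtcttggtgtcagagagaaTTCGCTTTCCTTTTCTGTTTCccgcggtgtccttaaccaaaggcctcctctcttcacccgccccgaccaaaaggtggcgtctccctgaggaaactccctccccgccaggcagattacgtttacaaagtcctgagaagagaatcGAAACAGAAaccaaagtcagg
EIF2AK2: gcggagtccaagggGAAAACGAAactgaga
TLR3: ttttttcaagctttactTTCACTTTCgaga

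IFIH1 had 4 matches. The first 3 lie on the opposite strand at -164 to -156, -158 to -150 and -152 to -144 from the gene start, where each shares 3 letters with the next, and the other lies at -21 to -13. EIF2AK2 had 1 match, at -6 to 3, and TLR3 had 1 on the opposite strand, at -3 to 6. The letters TTCNNNGAA, bound by STAT dimers and found in 7.66% of all windows on both strands, were found in the TLR3 window at -178 to -170 and -50 to -42 and overlapped no other match. Neither set of letters was found in the windows of DDX58, MAVS, TICAM1 or ADAR. A match is a description of the letters and not a bound site.

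Across the 10 genes, the siPRMT6-2 library stood above both others. Their summed counts were 102 with siPRMT6-1 (exact Poisson interval 83.2 to 124), 228 with siPRMT6-2 (199 to 260) and 85 with siNC (67.9 to 105). As CPM, counts scaled by library size with TMM, the sums were 275 CPM with siPRMT6-1, 691 CPM with siPRMT6-2 and 220 CPM with siNC. The ratio to siNC was 1.25 with siPRMT6-1 (0.927 to 1.69) and 3.14 with siPRMT6-2 (2.43 to 4.07), and siPRMT6-2 was 2.51 times siPRMT6-1 (1.98 to 3.20). Thus the siPRMT6-1 sum could not be told from the siNC sum at these counts. Intervals here and below are at 95%, compare single libraries and cover counting error only. In a bulk library, more cells that transcribe a gene and more RNA per cell cannot be told apart.

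**Figure D1:**
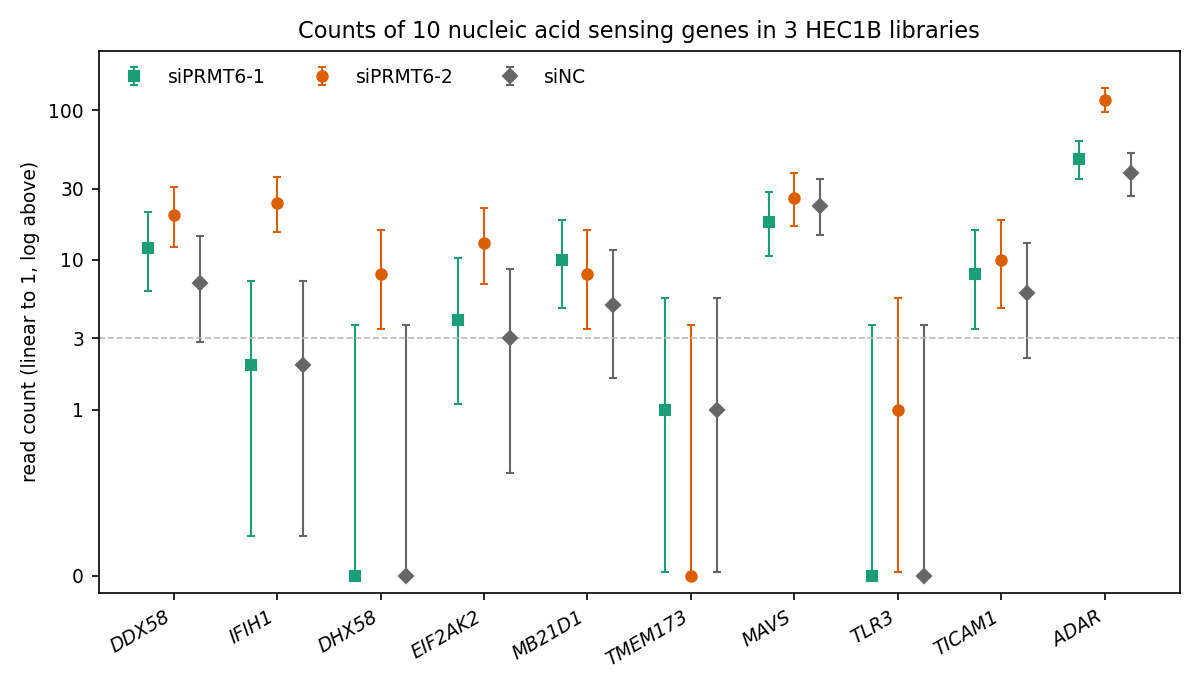
Read counts of the 10 genes in the siPRMT6-1, siPRMT6-2 and siNC libraries, on an axis that is linear up to 1 and logarithmic above; points are single libraries, bars are exact Poisson 95% intervals and the dashed line marks 3 counts. The siPRMT6-2 point stands highest for DDX58, IFIH1, DHX58, EIF2AK2, MAVS, TLR3, TICAM1 and ADAR, with separate intervals from both other libraries for IFIH1 and ADAR.

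The cytosolic RNA sensors had few counts with siNC and more with siPRMT6-2. DDX58 encodes RIG-I, which binds double-stranded RNA with an exposed triphosphate end, and lies on hg38 chr9:32455302-32526324, minus strand. It had 12 counts with siPRMT6-1, 20 with siPRMT6-2 and 7 with siNC. Its ratio to siNC was 1.78 with siPRMT6-1 (0.648 to 5.35) and 3.34 with siPRMT6-2 (1.36 to 9.35). Both knockdown libraries stood above siNC for DDX58, beyond counting error only with siPRMT6-2, and the ratio between the knockdown libraries was 1.87 with an interval of 0.872 to 4.20.

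IFIH1 encodes MDA5, the sensor of long double-stranded RNA, on chr2:162267079-162318708, minus strand. It had 2 counts with siPRMT6-1, 24 with siPRMT6-2 and 2 with siNC. The siPRMT6-2 library alone was high, and its Poisson interval of 15.4 to 35.7 lay apart from the 0.242 to 7.22 of each of the others. The ratio to siNC was 1.04 with siPRMT6-1 (0.0754 to 14.4) and 14.0 with siPRMT6-2 (3.48 to 122). Relative to siPRMT6-1, siPRMT6-2 was 13.5 times higher (3.35 to 118).

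DHX58 encodes LGP2, a helicase that regulates the other RNA sensors, on chr17:42101406-42112733, minus strand. It had 0 counts with siPRMT6-1, 8 with siPRMT6-2 (3.45 to 15.8) and 0 with siNC. A count of 0 allows up to 3 counts, which equal 8.09 CPM with siPRMT6-1 and 7.78 CPM with siNC. Against that limit per library, DHX58 was at least 3.12-fold higher with siPRMT6-2 than with siNC and at least 2.995-fold higher than with siPRMT6-1, taking its 8 counts as they stand. With counting error in both libraries, the exact binomial interval of the ratio starts at 2.00 over siNC and at 1.92 over siPRMT6-1. It had too few counts to enter the test across genes.

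EIF2AK2, which encodes the double-stranded RNA kinase PKR, lies on chr2:37105141-37157047, minus strand. It had 4 counts with siPRMT6-1, 13 with siPRMT6-2 and 3 with siNC. The siPRMT6-2 library was the high one here as well. The ratio to siNC was 1.39 with siPRMT6-1 (0.235 to 9.47) and 5.07 with siPRMT6-2 (1.39 to 27.7), and siPRMT6-2 was 3.65 times siPRMT6-1 (1.13 to 15.4).

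The DNA sensing route differed by gene. MB21D1, which encodes cGAS, lies on chr6:73425133-73452320, minus strand, and had 10 counts with siPRMT6-1, 8 with siPRMT6-2 and 5 with siNC. Both knockdown libraries stood above siNC within counting error, with ratios of 2.08 for siPRMT6-1 (0.648 to 7.76) and 1.87 for siPRMT6-2 (0.539 to 7.27). The knockdown libraries were close to each other, at a ratio of siPRMT6-2 to siPRMT6-1 of 0.899, with a wide interval of 0.308 to 2.53. TMEM173, which encodes STING on chr5:139475528-139482790, minus strand, had 1 count with siPRMT6-1, 0 with siPRMT6-2 and 1 with siNC. It was at or under 3 counts in each library, so no ratio is given.

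The adaptors of the RNA routes stood within counting error. MAVS, on chr20:3846799-3876123, plus strand, receives the signal of RIG-I and MDA5 at mitochondria and had 18 counts with siPRMT6-1, 26 with siPRMT6-2 and 23 with siNC. Its ratio to siNC was 0.814 with siPRMT6-1 (0.414 to 1.58) and 1.32 with siPRMT6-2 (0.725 to 2.42). The siNC count of MAVS lay between those of the knockdown libraries. TICAM1, which encodes TRIF on chr19:4815924-4831742, minus strand, had 8 counts with siPRMT6-1, 10 with siPRMT6-2 and 6 with siNC. Its ratios to siNC were 1.39 with siPRMT6-1 (0.422 to 4.85) and 1.95 with siPRMT6-2 (0.642 to 6.52), and the intervals of its counts overlapped in the 3 libraries.

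TLR3, the endosomal receptor upstream of TRIF, lies on chr4:186069155-186085098, plus strand. It had 0 counts with siPRMT6-1, 1 with siPRMT6-2 and 0 with siNC, so it was not detectable beyond the limit of 3 counts in any library. The TLR3 window is among the 3 that hold GAAANNGAA, as are those of IFIH1 and EIF2AK2.

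ADAR had the most counts of the 10 genes in each library. It encodes ADAR1, the adenosine deaminase that edits double-stranded RNA, and lies on chr1:154582058-154627980, minus strand. It had 47 counts with siPRMT6-1, 118 with siPRMT6-2 and 38 with siNC. The siPRMT6-2 interval of 97.7 to 141 lay above the 34.5 to 62.5 with siPRMT6-1 and the 26.9 to 52.2 with siNC, which overlapped. The ratio to siNC was 1.29 with siPRMT6-1 (0.821 to 2.03) and 3.63 with siPRMT6-2 (2.50 to 5.38), and siPRMT6-2 was 2.82 times siPRMT6-1 (2.00 to 4.04). The counts are summed over exons of the gene and do not separate the interferon-inducible long isoform of ADAR1 from the constitutive one.

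ADAR held 46.1% of the summed counts with siPRMT6-1 (exact Clopper-Pearson interval 36.2 to 56.2%), 51.8% with siPRMT6-2 (45.1 to 58.4%) and 44.7% with siNC (33.9 to 55.9%), shares that overlap. Without ADAR, the other 9 genes summed to 55 counts with siPRMT6-1, 110 with siPRMT6-2 and 47 with siNC. Their ratio to siNC was 1.22 with siPRMT6-1 (0.810 to 1.84) and 2.74 with siPRMT6-2 (1.93 to 3.94). The high sum with siPRMT6-2 was therefore present with and without ADAR. The share of MAVS was 17.6% with siPRMT6-1, 11.4% with siPRMT6-2 and 27.1% with siNC.

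**Figure D2:**
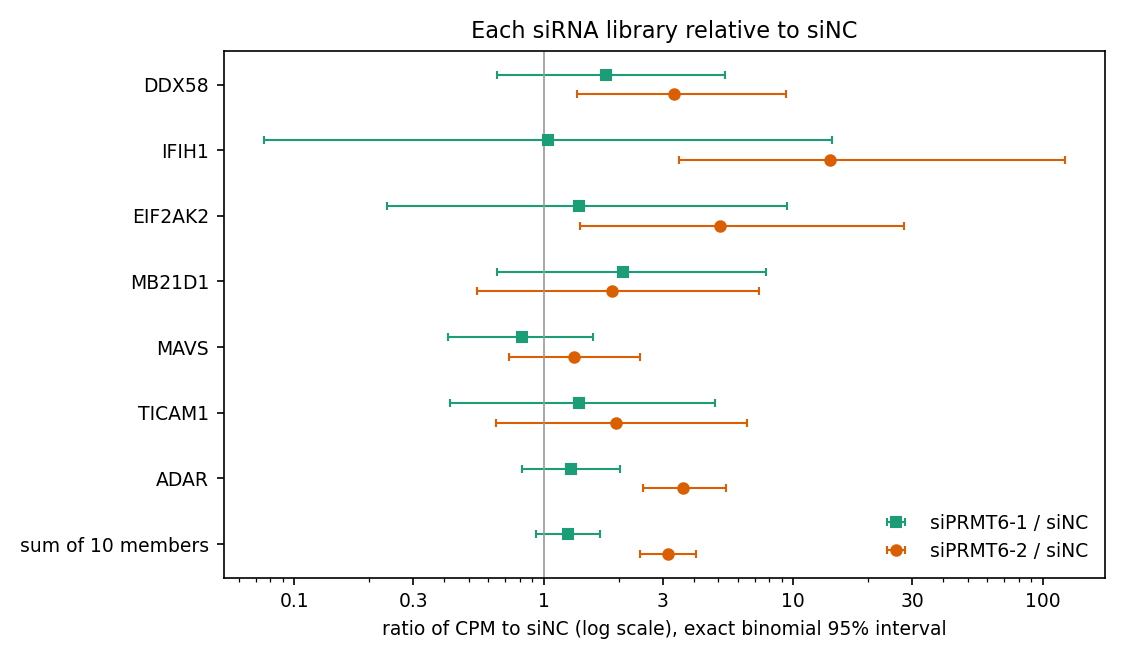
Ratio of CPM to siNC for the 7 genes with enough counts to be tested and for the sum of all 10, on a log axis; each point sets a single library against siNC and bars are exact binomial 95% intervals. With siPRMT6-2 the intervals of DDX58, IFIH1, EIF2AK2, ADAR and the sum lie above 1, and with siPRMT6-1 each interval includes 1.

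Per kilobase of exon, on the scale of CPM per kb, ADAR had the highest level in each library, at 17.9 with siPRMT6-1, 50.4 with siPRMT6-2 and 13.9 with siNC. Only with siPRMT6-2 did its interval (41.7 to 60.4) lie above those of the other 9 genes. IFIH1 had 1.498 CPM per kb with siPRMT6-1, 20.2 with siPRMT6-2 and 1.44 with siNC, which put it at rank 7 of 10 with siPRMT6-1, rank 2 with siPRMT6-2 and rank 7 with siNC. MB21D1, the shortest of the 10 by exon length (1802 bases), had 14.97, 13.5 and 7.19 CPM per kb in the same order of libraries and ranked 2, 3 and 2. Below ADAR the order is loose, since neighbours in it overlapped in their intervals. With siPRMT6-2 it ran ADAR, IFIH1, MB21D1, DDX58 (12.7), TICAM1 (11.1), DHX58 (9.27), EIF2AK2 (9.06), MAVS (6.69), TLR3 (0.996) and TMEM173 (0). With siNC it ran ADAR, MB21D1, TICAM1 (5.71), MAVS (5.06), DDX58 (3.81), EIF2AK2 (1.79), IFIH1 (1.44) and TMEM173 (1.17), with DHX58 and TLR3 at 0. MAVS stood at rank 5 with siPRMT6-1, rank 8 with siPRMT6-2 and rank 4 with siNC.

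The comparison of PRMT6 knockdown with siNC asked whether these genes changed with loss of PRMT6, and none passed the test across genes. The edgeR quasi-likelihood test, fitted on 6803 genes with Benjamini-Hochberg adjustment, called 0 genes (0% of those tested). The adjusted p was 1.00 for each of the 7 sensing genes tested. Its lowest value over all genes in this test was 0.9999. The targeted gene PRMT6 was not called either (log2 fold change -2.01, SE 0.684). A lack of calls in this test therefore does not show that a gene was unchanged. With no adjustment, 186 genes had p under 0.05 (2.73%), of which 138 were higher (2.03%) and 48 lower (0.706%) in knockdown. ADAR was 1 of the 138, and 0 of the 7 sensing genes were among the 48. DESeq2 called 0 genes, with 13 at an unadjusted p under 0.05 and no sensing gene among them. A gene's own spread comes from 1 residual degree of freedom, which is the difference between the siRNAs. The test moderates it toward the spread of the other genes, with a median prior of 12.8 degrees of freedom. The lone siNC library was assumed to vary like the others.

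The fitted log2 fold change of knockdown over siNC was 2.80 for IFIH1 (SE 1.36), 1.62 for EIF2AK2 (SE 1.04), 1.33 for DDX58 (SE 0.748) and 1.29 for ADAR (SE 0.596, unadjusted p = 0.0484 in the edgeR quasi-likelihood test). It was 0.97 for MB21D1 (SE 0.909), 0.72 for TICAM1 (SE 0.871) and 0.09 for MAVS (SE 0.563). For IFIH1 the siPRMT6-2 library decided the value, since its log2 CPM difference from siNC, with a prior count of 2, was 0.03 with siPRMT6-1 and 2.87 with siPRMT6-2. DDX58, EIF2AK2 and ADAR had 0.68, 0.29 and 0.35 with siPRMT6-1, and 1.48, 1.76 and 1.80 with siPRMT6-2. MB21D1 had 0.81 with siPRMT6-1 and 0.69 with siPRMT6-2, the smallest gap between siRNAs of the 7.

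DHX58, TMEM173 and TLR3 did not reach the count minimum. ADAR and MAVS reached it in the 3 libraries, DDX58 in both knockdown libraries, MB21D1 only with siPRMT6-1, and IFIH1, EIF2AK2 and TICAM1 only with siPRMT6-2. A gene that entered through a knockdown library had to stand higher there, so the counts and medians of the 7 describe them and lend no support to a change.

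Set against siNC, siPRMT6-1 had 0 of the 7 tested genes with an interval above 1, where 5.89% of all genes tested had one. For siPRMT6-2 the count was 4 of 7, namely ADAR, EIF2AK2, IFIH1 and DDX58, against 9.73% of all genes. Between the siRNAs, siPRMT6-2 stood above siPRMT6-1 beyond counting error for 3 of 7, ADAR, EIF2AK2 and IFIH1, against 11.3% of all genes. No tested sensing gene had an interval below 1 in these 3 comparisons, where 7.14%, 8.82% and 9.61% of all genes did. The comparisons share libraries and are not independent. By a fold of at least 2 after adding the prior count, which shrinks the ratios of low counts such as those of MB21D1, the same numbers of sensing genes were higher, 0 of 7 for siPRMT6-1 over siNC (4.89% of all genes), 4 of 7 for siPRMT6-2 over siNC (8.16%) and 3 of 7 for siPRMT6-2 over siPRMT6-1 (9.11%). By that fold 0 of 7 were lower in each comparison, where 4.38%, 5.38% and 6.7% of all genes were.

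**Figure D3:**
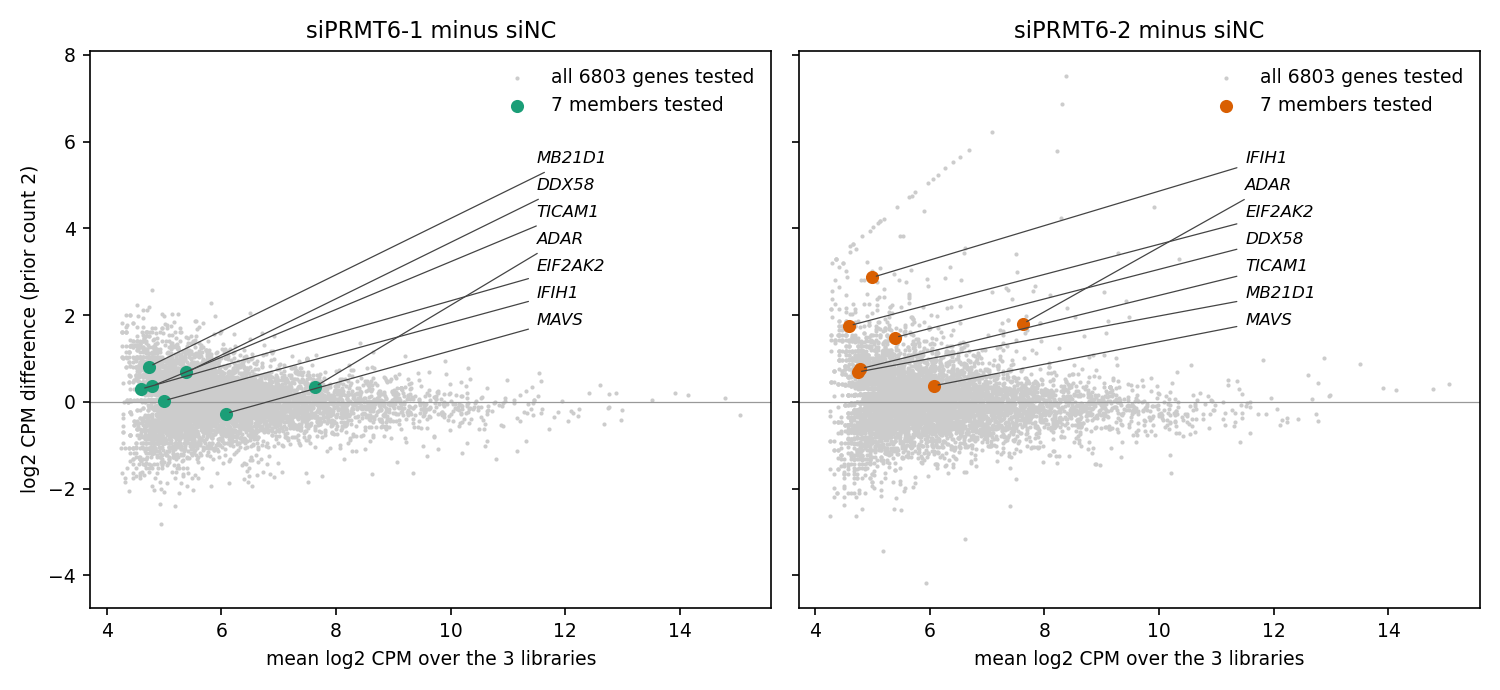
Log2 CPM difference from siNC (prior count 2) against mean log2 CPM over the 3 libraries for all 6803 genes tested (grey) and the 7 sensing genes (coloured), siPRMT6-1 on the left and siPRMT6-2 on the right; each point is a gene. With siPRMT6-1 the 7 genes lie between -0.27 and 0.81, and with siPRMT6-2 they lie between 0.37 and 2.87.

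Genes around the sensors were taken from lists by role, and none of their members passed the edgeR quasi-likelihood test either (0 called). The median log2 fold change in knockdown over siNC was 1.29 over the 7 tested sensing genes, against 0.04 over all 6803 genes. With siPRMT6-1 the median log2 CPM difference was 0.35 over the sensing genes and 0.01 over all genes, and with siPRMT6-2 it was 1.48 and 0.01.

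Of 16 other nucleic acid receptors listed, 7 were tested, with a median log2 fold change of -0.40. NLRP1, an inflammasome sensor, had 16 counts with siPRMT6-1, 52 with siPRMT6-2 and 23 with siNC, a ratio to siNC of 2.64 with siPRMT6-2 (1.59 to 4.52). It was 1 of the 7 with an interval above 1, against 9.73% of all genes tested. DHX9, an RNA helicase, had 24 counts with siPRMT6-1, 15 with siPRMT6-2 and 33 with siNC. POLR3A, the large subunit of RNA polymerase III, had 8, 11 and 7 in that order. Untested for low counts and named after their values were seen, the DNA sensor gene IFI16 had 0, 8 and 0, the RIG-I cofactor gene DDX60 had 1, 8 and 0, and ZBP1, a sensor of Z-form nucleic acid, had 0, 3 and 0. These 3 genes had counts mainly with siPRMT6-2, as DHX58 did. The other untested receptors did not, with 4, 2 and 5 counts for DHX36, 3, 2 and 1 for POLR3B and 1, 0 and 0 for TLR9. TLR7, TLR8 and AIM2 were at 0 throughout.

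Among cofactors and regulators of sensors, 12 of 16 were tested and their median was 0.21. ZC3HAV1, which encodes the zinc finger antiviral protein ZAP, had 21 counts with siPRMT6-1, 120 with siPRMT6-2 and 21 with siNC. Its ratio to siNC was 1.04 with siPRMT6-1 (0.541 to 2.00) and 6.68 with siPRMT6-2 (4.18 to 11.2). UNC93B1, the chaperone that carries endosomal receptors such as TLR3 to their compartment, had 5 counts with siPRMT6-1, 34 with siPRMT6-2 and 10 with siNC. Its ratio to siNC was 0.520 with siPRMT6-1 (0.140 to 1.67) and 3.97 with siPRMT6-2 (1.92 to 9.02). CNPY3, a folding factor of Toll-like receptors, had 11 counts with siPRMT6-1, 16 with siPRMT6-2 and 6 with siNC. The siPRMT6-2 library was the highest for these 3 cofactor genes. Of the 12 tested, 4 had an interval above 1 with siPRMT6-2 (9.73% of all genes) and 1 had one below (8.82%). With siPRMT6-1 there were 0 above (5.89% of all genes) and 0 below (7.14%).

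Downstream adaptors, kinases and transcription factors had a median of 0.44 over 10 of 18 tested. IRF5, an interferon regulatory factor, was high in both knockdown libraries, with 11 counts with siPRMT6-1, 10 with siPRMT6-2 and 1 with siNC. Its ratio to siNC was 11.4 with siPRMT6-1 (1.66 to 493) and 11.7 with siPRMT6-2 (1.66 to 507), and its fitted log2 fold change was 3.37 (SE 1.23), with an adjusted p of 1.00 in the edgeR quasi-likelihood test. AZI2, an adaptor of the kinase TBK1, had 8 counts with siPRMT6-1, 10 with siPRMT6-2 and 3 with siNC. FADD, a death-domain adaptor, had 9, 13 and 7 in that order. Of the 10 tested, 3 had an interval above 1 with siPRMT6-2 (9.73% of all genes) and 0 had one below (8.82%). With siPRMT6-1 there were 1 above (5.89% of all genes) and 0 below (7.14%). The list as a whole summed to 156 counts with siPRMT6-1, 155 with siPRMT6-2 and 156 with siNC. The ratio of the sums to siNC was 1.04 with siPRMT6-1 (0.828 to 1.31) and 1.16 with siPRMT6-2 (0.924 to 1.46).

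Of 12 genes of nucleic acid clearance and editing, 5 were tested, with a median of 0.14. SAMHD1, a phosphohydrolase that depletes nucleotides, had 4 counts with siPRMT6-1, 36 with siPRMT6-2 and 1 with siNC, a ratio to siNC of 42.1 with siPRMT6-2 (7.09 to 1708). It shares 205 exon bases with TLDC2 on the opposite strand, which had 29 counts with siPRMT6-1, 165 with siPRMT6-2 and 31 with siNC, so the split of reads between SAMHD1 and TLDC2 is uncertain. TREX1, the cytosolic DNA exonuclease, had 7 counts with siPRMT6-1, 18 with siPRMT6-2 and 8 with siNC, a ratio of 2.63 with siPRMT6-2 (1.09 to 6.99). SKIV2L, an RNA helicase of the exosome, had 84, 60 and 88 counts and shares exon bases with NELFE on the opposite strand. For SAMHD1 and TREX1 the siPRMT6-2 library was the high one, and for SKIV2L it was the lowest. Of the 5 tested, 2 had an interval above 1 with siPRMT6-2 (9.73% of all genes) and 1 had one below (8.82%).

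PKR shares its substrate eIF2alpha with other kinases, and this list of 8 genes had a median of 0.09 over 7 tested. DDIT3, the stress-induced transcription factor CHOP, was low in both knockdown libraries, with 109 counts with siPRMT6-1, 70 with siPRMT6-2 and 197 with siNC. Its ratio to siNC was 0.576 with siPRMT6-1 (0.451 to 0.731) and 0.415 with siPRMT6-2 (0.312 to 0.548), and it shares 68 exon bases with MARS on the opposite strand. PPP1R15B, a regulatory subunit of the phosphatase that restores eIF2alpha, had 59 counts with siPRMT6-1, 35 with siPRMT6-2 and 26 with siNC. The related PPP1R15A had 36, 53 and 28 in that order. PPP1R15B stood above siNC beyond counting error only with siPRMT6-1 (ratio 2.36, 1.47 to 3.90), and PPP1R15A only with siPRMT6-2 (ratio 2.21, 1.37 to 3.63). Of the 7 tested, each siRNA had 1 gene with an interval above 1 and 1 with an interval below. Over all genes, 5.89% were above and 7.14% below with siPRMT6-1, and 9.73% and 8.82% with siPRMT6-2.

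The interferon genes that lie at the end of these routes were near the limit of detection. Of 8 ligand genes, 6 had 0 counts in each library. IFNL1, a type III interferon, had 0 counts with siPRMT6-1, 7 with siPRMT6-2 and 1 with siNC, and IFNL3 had 0, 2 and 0. The few ligand counts were mostly with siPRMT6-2, the library in which DDX58, IFIH1, DHX58, EIF2AK2 and ADAR were high.

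**Figure D4:**
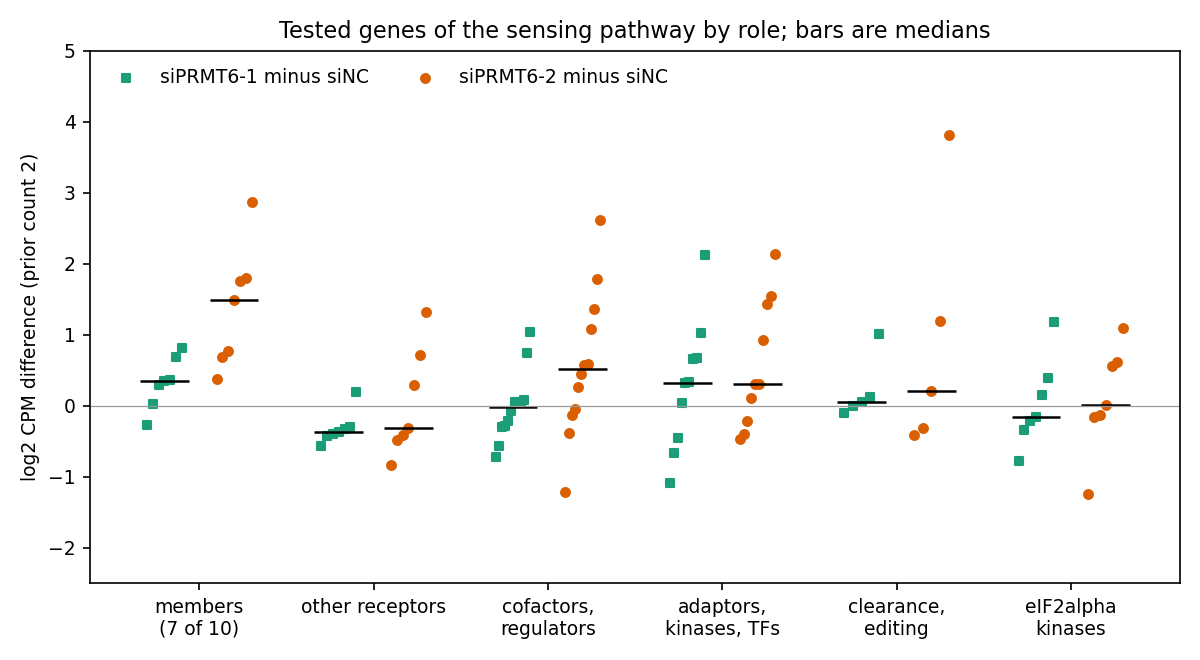
Log2 CPM difference from siNC (prior count 2) for the tested genes of each list, siPRMT6-1 left of siPRMT6-2; each point is a gene and bars are medians. The sensing genes have medians of 0.35 with siPRMT6-1 and 1.48 with siPRMT6-2, and the medians of the other lists lie between -0.37 and 0.51.

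Because the strand of the counts is uncertain, the nearest gene on the opposite strand was looked up beyond the 3′ end of each sensing gene, within 10 kb, a choice made after seeing the data. DDX58, EIF2AK2, MB21D1 and ADAR have such a neighbour, and its exons do not overlap theirs. ACO1, which lies 4468 bases beyond DDX58 and encodes a cytosolic aconitase, had 11 counts with siPRMT6-1, 71 with siPRMT6-2 and 10 with siNC, and its ratio to siNC was 1.14 with siPRMT6-1 (0.441 to 3.01) and 8.30 with siPRMT6-2 (4.26 to 18.1). ACO1 was thus highest with siPRMT6-2, as DDX58 was. The ratio of siPRMT6-2 to siPRMT6-1 was 7.25 for ACO1 (3.82 to 15.2) and 1.87 for DDX58 (0.872 to 4.20). GPATCH11, 5897 bases beyond EIF2AK2, had 6 counts with siPRMT6-1, 12 with siPRMT6-2 and 4 with siNC, a ratio of 3.51 with siPRMT6-2 (1.06 to 14.9), and was also highest with siPRMT6-2. CHRNB2, 2181 bases beyond ADAR, had 2, 10 and 8 counts, and DDX43, 7567 bases beyond MB21D1, had 5, 3 and 0. CHRNB2 did not stand above siNC beyond counting error with siPRMT6-2 (ratio 1.46, 0.519 to 4.26). Whether reads beyond the 3′ end of a sensing gene entered the counts of its neighbour was not tested.

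**Figure D5:**
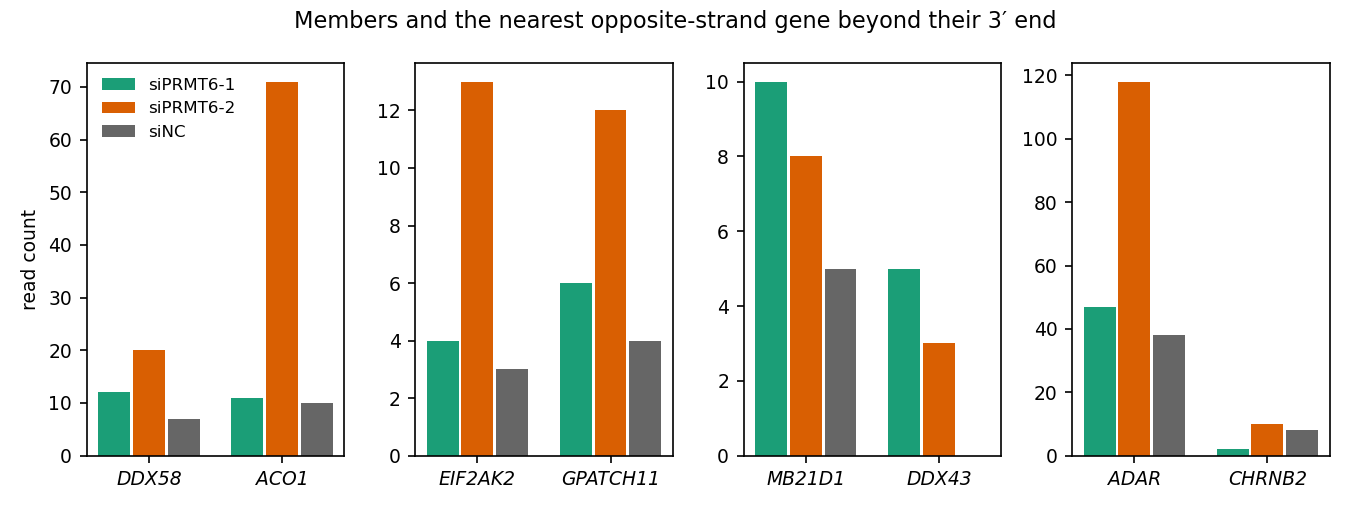
Read counts of DDX58, EIF2AK2, MB21D1 and ADAR beside the nearest opposite-strand gene beyond their 3′ end, in the siPRMT6-1, siPRMT6-2 and siNC libraries; bars are single libraries, with a separate axis from 0 in each panel. ACO1, GPATCH11 and CHRNB2 are highest with siPRMT6-2, at 71, 12 and 10 counts, like DDX58, EIF2AK2 and ADAR beside them. MB21D1 and DDX43 are highest with siPRMT6-1.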

How the data were processed

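The authors deposited whole-number counts per gene for the 3 libraries, with no normalization. A stranded kit for low input amounts was used, per the labels' protocols. STAR 2.7.8a was the aligner and hg38 the build, per the submitters' processing notes. Reads were counted with featureCounts 2.0.1 over exons of the UCSC hg38 gene models, with read pairs, strand setting 1 and reads in overlapping genes added to each of them, per the file headers. The header's file names point to UMI deduplication. Columns were matched to libraries by the sample descriptions, in which si2 stands for siPRMT6-1 of the title and si3 for siPRMT6-2.

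From the counts, edgeR 4.0.16 (R 4.3.3) was fitted with TMM normalization, filterByExpr (minimum count 10, minimum total 15) and the quasi-likelihood F-test, two-sided, knockdown against siNC, with Benjamini-Hochberg adjusted p under 0.05. With a control group of 1 library, the filter kept genes with enough counts in a single library. Each SE is the absolute log2 fold change divided by the square root of the F statistic and was not estimated separately. Differences per siRNA are log2 CPM with a prior count of 2. Ratios of single libraries are ratios of CPM with exact binomial intervals, and genes at 0 were set to 3 counts per library. DESeq2 1.42.0, other scalings, no filter, other edgeR tests, leaving out each siRNA and leaving out genes with opposite-strand exons were the alternatives. Genes sharing exon bases with an opposite-strand gene held 49.2% of counts with siPRMT6-1, 47.6% with siPRMT6-2 and 51.3% with siNC.

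The members and lists were chosen with earlier results of these data known. From each list the text names the 3 genes with the largest absolute log2 fold change among those with at least 20 counts over the libraries. The untested receptors are named as well. Promoter sequences are from RefSeq, GRCh38.p14, and no promoter window of DHX58, MB21D1 or TMEM173 was used here. The values of 1 marker gene are not reported here.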

Additional observations from a re-analysis of the deposited data

How the results depend on the processing

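No alternative with a test called a sensing gene, and 41 of 41 alternative log2 fold changes with a test kept their direction and stayed short of the threshold, with a lowest adjusted p of 0.571, for IFIH1. Over these alternatives the log2 fold change ran from 2.76 to 2.91 for IFIH1 and from 1.25 to 1.29 for ADAR. Over all genes the edgeR quasi-likelihood test called 0, and so did the fit with DESeq2 size factors, the fit with no filter, the DESeq2 Wald test and the fit without genes with opposite-strand exons. By contrast, 32 genes were called with edgeR's older quasi-likelihood fit and 31 with the edgeR likelihood ratio test, none of them a sensing gene; the cause was not tested. Genes with an unadjusted p under 0.05 numbered 186, 200 with DESeq2 size factors, 346 of 16244 with no filter, 13 with DESeq2, 223 with the older fit, 215 with the likelihood ratio test and 108 of 4716 without genes with opposite-strand exons. ADAR was under 0.05 with no adjustment in the edgeR quasi-likelihood test, both ADAR and IFIH1 with DESeq2 size factors, the older fit and the likelihood ratio test, IFIH1 with no filter and without genes with opposite-strand exons, and no sensing gene with DESeq2. With no filter the median log2 fold change of all genes was 0.10, against 0.04.

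Leaving out an siRNA leaves 1 library against 1, with no residual degrees of freedom, so it gives a value with no test, and the number of genes called was not run. Without siPRMT6-2 the log2 difference of MAVS changed sign, to -0.27 against a fitted 0.09. The others were 0.03 for IFIH1, 0.29 for EIF2AK2, 0.35 for ADAR, 0.68 for DDX58, 0.36 for TICAM1 and 0.81 for MB21D1. Without siPRMT6-1 they were 2.87 for IFIH1, 1.80 for ADAR, 1.76 for EIF2AK2, 1.48 for DDX58, 0.77 for TICAM1, 0.69 for MB21D1 and 0.37 for MAVS. All 52 ratios of single libraries recomputed with other library sizes or, for the sum, with other sets of members kept their side of 1 and the call of their interval. Of the other sets, leaving out members with opposite-strand exons removed none of the sensing genes, so those ratios could not change. No paired analysis was possible because the siNC group is a single library, so that no more than 1 replicate number is shared. Low counts are a limit: DHX58, TMEM173 and TLR3 had 0 to 8 counts. The 2 counts of IFIH1 with siNC give the ratio an interval of 3.48 to 122.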
